A study of Homo sapiens with 8 samples.

Results

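The 42 genes described here are those of the integrated stress response and the unfolded protein response, taken by gene symbol from a list drawn up by role, and all 42 were found among the 27696 genes of the count table. They fall into 24 ATF4-type genes (12 stress factors and regulators, GDF15 among them, 8 amino acid and one-carbon enzymes and 4 amino acid transporters), 13 ER chaperones and folding factors, 3 genes of ER-associated degradation and 2 genes of the IRE1 branch. They were measured by RNA-Seq in IMR90 human lung fibroblasts that received, for 3 days, medium conditioned by IMR90-ER:RAS fibroblasts taken at day 0, 4, 7 or 10 of induction with 4-OHT, so that the donor cells carry a RAS oncogene that 4-OHT switches on and the recipient cells do not. Groups carry the name of the medium they received, D0, D4, D7 or D10, and the D0 group, the control, had conditioned medium of donors at day 0. Each group holds 2 libraries, replicates 1 and 2, from 2 independent experiments, so 8 libraries in all. Replicates 1 and 2 of every group were taken as experiments 1 and 2, which the labels do not state. The medium was harvested free of serum, and serum was added before use.

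In the integrated stress response, kinases that sense amino acid shortage, ER stress, viral RNA or lack of haem phosphorylate eIF2α, which slows general translation and favours translation of the transcription factor ATF4. ATF4 switches on genes for amino acid synthesis and import, together with feedback and death regulators such as DDIT3 (CHOP), TRIB3 and PPP1R15A, and GDF15 is a secreted cytokine that this pathway and p53 can both raise. The unfolded protein response adds ATF6 and the IRE1 (ERN1) branch, which splices XBP1 mRNA and raises chaperones such as HSPA5 (BiP) and the degradation machinery of the ER, and secretory cells such as collagen-making fibroblasts depend on this machinery.

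The roles also differ in the sequence elements known for these factors. RefSeq promoters (GRCh38.p14) were matched for 36 of the 42 genes (all but SHMT2, PDIA3, ALDH1L2, PYCR1, NUPR1 and PSPH), and the 250 bases before each annotated start were searched on both strands. The ER stress element, written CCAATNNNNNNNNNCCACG, was found in 6 of 12 ER chaperones and in XBP1, in 0 of 19 ATF4-type genes, and in 0.0916% of the 27305 genes of the table. Its short form, ATTGGNCCACG, was found in HYOU1, SDF2L1 and HERPUD1, against 0.0659% of all genes. The C/EBP-ATF element, TGATGNAA, was found in 3 of 19 ATF4-type genes and 0 of 12 ER chaperones, against 3.89% of all genes. These are letter matches only, and nothing in these data measures binding at them. It was also found in HERPUD1, 1 of 3 genes of ER-associated degradation. PHGDH, PSAT1, SLC7A5, SLC3A2, DDIT4, MTHFD2, GDF15, DNAJB9 and ERN1 held none of these letters in this window. The matches below are shown as examples of each element in genes described here, and each is read 5′ to 3′ in the direction of the element, with the fixed letters of the element in capitals.
HSPA5, chr9:125241386-125241414, minus strand: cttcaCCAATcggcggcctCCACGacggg
HSP90B1, chr12:103930316-103930344, minus strand: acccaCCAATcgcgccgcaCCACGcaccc
CALR, chr19:12938379-12938407, minus strand: accgaCCAATgatggtcgaCCACGcgtgg
XBP1, chr22:28800598-28800626, minus strand: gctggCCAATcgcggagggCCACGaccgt
HERPUD1, chr16:56932016-56932044, plus strand: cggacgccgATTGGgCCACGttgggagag
HERPUD1, chr16:56931956-56931983, minus strand: gggcacgggcTGATGcAAcccgccgcgt
ATF3, chr1:212565206-212565233, plus strand: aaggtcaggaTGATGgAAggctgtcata
ASNS, chr7:97872459-97872486, minus strand: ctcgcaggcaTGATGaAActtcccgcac
CHAC1, chr15:40953252-40953279, minus strand: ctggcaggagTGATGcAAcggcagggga

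The ER chaperone with the most matches was HYOU1, an HSP70-type chaperone of the ER lumen. Its window, on the minus strand at chr11:119057206-119057455, held the short form at 2 places, and the first of them overlapped a match to TGACGTG, the core that XBP1 and ATF6 can bind, which 2.05% of all genes held. All matched letters are in capitals.
HYOU1: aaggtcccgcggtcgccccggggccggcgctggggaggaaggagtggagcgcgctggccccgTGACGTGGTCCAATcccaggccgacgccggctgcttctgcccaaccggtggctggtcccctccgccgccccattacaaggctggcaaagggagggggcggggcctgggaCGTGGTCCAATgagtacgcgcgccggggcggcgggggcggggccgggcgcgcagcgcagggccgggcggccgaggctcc

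The libraries held from 11708193 to 13395912 counts, and values below are CPM, the counts scaled to equal library totals with TMM factors. All 9 fibroblast markers examined, from COL1A1 to VIM, were present in every library, while 4 haematopoietic markers summed to at most 3.77 CPM, 6 epithelial markers to 20.5 to 32.9 CPM (mostly KRT8) and 6 endothelial markers to 42.5 to 122 CPM (mostly TEK). D10 replicate 2 stood apart. It was the highest of the 8 libraries for 23.2% of the 13798 genes tested and the lowest for 24.2%, and its fibroblast markers summed to 10045 CPM against 30246 to 46747 CPM in the other 7 libraries, with 7 of the 9 at their lowest there. Their part in the results below was not tested. D4 replicate 1 was the highest for 21.0% and the lowest for 21.3%. D10 values below are therefore given for each experiment, and the D10 tests of single genes also without D10 replicate 2, in the fit with the replicate block. In bulk RNA, fewer cells with a transcript and less of it per cell cannot be told apart.

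At the level of D0, genes were compared per length of exon (RPKM, CPM divided by exon length in kilobases). The ER chaperones CALR, HSPA5 and HSP90B1 led the 42 genes, while others of that role ranked low, such as CRELD2 at 33 and DNAJB9 at 34. CALR, the calcium-binding lectin chaperone calreticulin, had a mean of 736.9 RPKM, HSPA5 293.8 and HSP90B1 (GRP94) 246.9. The highest ATF4-type gene was SLC38A2, a neutral amino acid transporter, at 182.2 RPKM, followed by ATF4 at 97.8 RPKM. ASNS, asparagine synthetase, was last at 0.240 RPKM and ERN1, the IRE1 kinase and ribonuclease itself, next to last at 0.966 RPKM. ASNS rests on few reads, from 2 to 63 counts per library. ASNS also shares 44.6% of its exon bases with AC079781.5, a gene on the same strand that had 1 to 7 counts.

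Much of the ATF4-type arm was lower with D4 and D7 medium than with D0 medium in both experiments, and the ER chaperones lay near their D0 level. Of the 24 ATF4-type genes, 17 were below their own D0 library in both experiments at D4 and 19 at D7, against 28.9% and 31.1% of all genes tested. The median change at D7 was -0.39 on the log2 scale in experiment 1 and -1.0 in experiment 2, while the medians over all genes were 0.00017 and 0.0019. Both D7 libraries lay below both D0 libraries for 18 of 24, against 15.2% of all genes, and both D4 libraries for 11 of 24, against 12.6%. The order D0 above D4 above D7 was seen for 14 of 24 in experiment 1 and 18 of 24 in experiment 2, against 14.2% and 21.9% of all genes, and D7 replicate 2 was the lowest of the 8 libraries for 15 of 24, against 10.9%. For the 13 ER chaperones the D7 medians were -0.021 and -0.070, 5 of 13 were lower in both experiments, and for 0 of 13 did both D4 or both D7 libraries lie below both D0 libraries. D4 and D7 share the D0 libraries, so that they are not independent of each other.

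**Figure D1:**
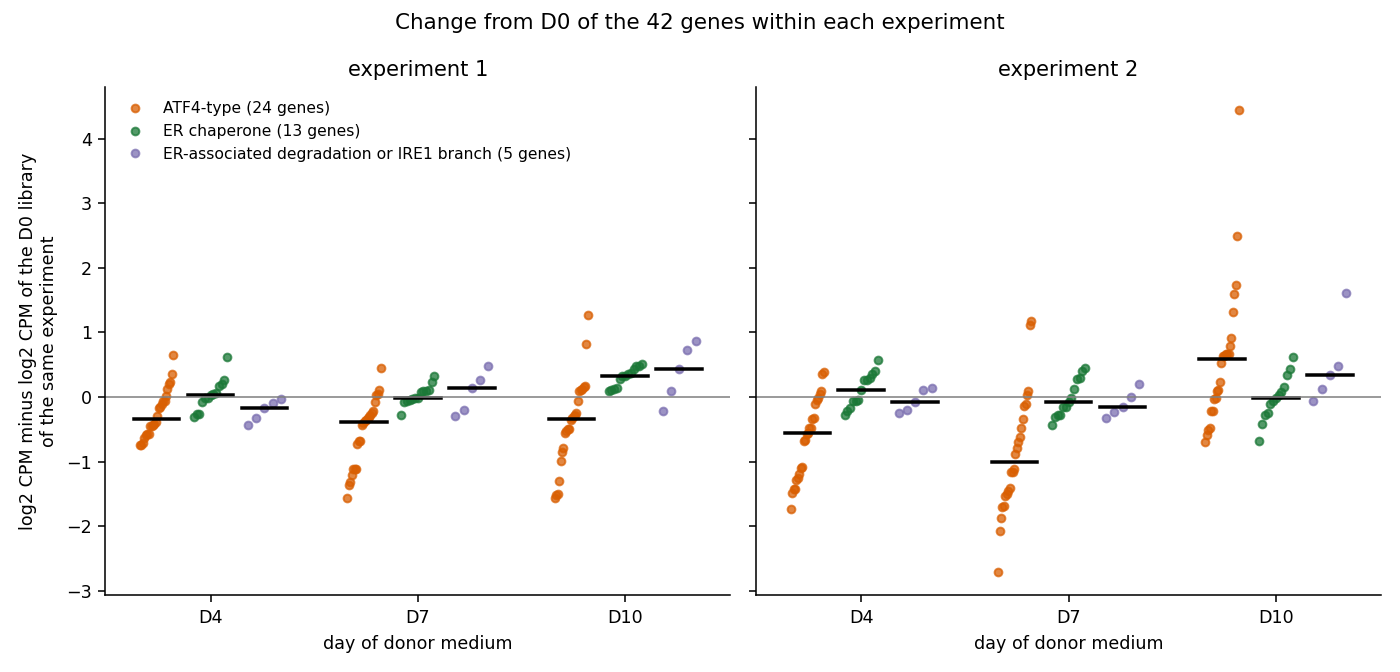
Each point is 1 of the 42 genes, plotted as log2 CPM minus log2 CPM of the D0 library of the same experiment (y axis) for D4, D7 and D10 medium (x axis), with experiment 1 on the left and experiment 2 on the right. Colours give the role and black bars the median of each role. The ATF4-type median lies below 0 at D4 and D7 in both panels, whereas at D10 it lies at -0.34 in experiment 1 and at 0.59 in experiment 2. The ER chaperones stay between -0.67 and 0.63 throughout.

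The enzymes of serine synthesis are an example. PHGDH, the first enzyme of serine synthesis from glycolysis (chr1:119648411-119744226), stood at 102.6 and 93.85 CPM with D0 medium in experiments 1 and 2, 68.4 and 43.9 with D4, 39.98 and 28.97 with D7, and 35.98 and 100.1 with D10 medium. PSAT1, the next enzyme of the pathway, went from 127.1 and 171.3 CPM in D0 to 77.9 and 51.5 in D4, 55.2 and 26.0 in D7 and 44.3 and 170.4 in D10. Both D4 libraries and both D7 libraries lay below both D0 libraries for each gene, and at D10 only experiment 1 stayed low. PSPH, the last enzyme of the pathway, was at 24.6 and 20.3 CPM in D0, 22.1 and 13.8 in D4 and 18.9 and 9.03 in D7, and it was low in both experiments at D10, with 13.5 CPM in each. All 8 amino acid and one-carbon enzymes were lower at D7 than at D0 in both experiments.

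MTHFD2, a mitochondrial folate enzyme, read 91.7 and 101.6 CPM in D0, 61.4 and 47.9 in D4, 57.0 and 37.2 in D7 and 52.9 and 147.2 in D10. Its groups did not overlap between D0 and D4 or between D0 and D7, and the D10 libraries lay on either side of D0. SHMT2, a mitochondrial serine hydroxymethyltransferase, went from 184.2 and 142.4 CPM at D0 to 139.6 and 88.1 at D7 and 147.5 and 225.2 at D10, with overlap between D0 and D4. PYCR1, a proline synthesis enzyme, was at 110.3 and 72.9 CPM at D10, lower in both experiments than at D0 (155.9 and 103.6), with overlapping groups. DESeq2 with the experiment as a block called it lower at D10 (log2 fold change -0.50, adjusted p = 0.0482), and edgeR with that block did not. ALDH1L2, a mitochondrial folate dehydrogenase, stayed between 64.3 and 118.6 CPM.

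Both subunits of the large neutral amino acid exchanger gave like values. SLC7A5 (LAT1), the transporter subunit, had 111.9 and 126.2 CPM in the D0 libraries, 66.7 and 44.97 in D4, 44.8 and 29.7 in D7, and 45.2 and 123.8 in D10. SLC3A2 (CD98), the chain that carries it to the membrane, was at 154.8 and 186.7 CPM in D0, 113.0 and 69.2 in D4, 71.4 and 57.1 in D7 and 77.5 and 201.6 in D10. For both genes the D4 and D7 libraries all lay below the D0 libraries, and the D10 libraries of the experiments lay far apart. SLC7A1, an arginine and lysine transporter, was at 49.1 and 52.8 CPM in D0, 36.7 and 41.8 in D4, 40.4 and 28.4 in D7, and 33.2 and 84.3 at D10. SLC38A2 did not follow them, with 883.2 and 1523 CPM at D0, 948.6 and 1559 at D7, and 961.0 and 1090 at D10.

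Among the regulators, DDIT4 (REDD1), an inhibitor of mTORC1, stood at 54.2 and 41.4 CPM in D0, 34.96 and 15.3 in D4, 24.9 and 11.1 in D7 and 38.3 and 124.9 in D10. DDIT3, the transcription factor CHOP, was at 37.5 and 29.7 CPM in D0, 35.9 and 12.96 in D4, 23.4 and 10.4 in D7, and 25.9 and 47.4 at D10. TRIB3, a pseudokinase that restrains ATF4 signalling, was at 43.7 and 55.8 CPM in D0, 43.95 and 22.8 in D4, 32.2 and 21.0 in D7, and 34.0 and 139.7 at D10. All 3 were lowest in D7 replicate 2 and highest in D10 replicate 2. ATF4 itself varied less, with 243.4 and 248.4 CPM in D0, 215.5 and 167.7 in D4, 193.7 and 178.0 in D7 and 204.5 and 387.2 in D10. Both its D4 and D7 groups lay below D0. The reads of ATF4 could be shared with a pseudogene (17.9% of its 50-base words occur in another gene, mainly ATF4P4), and DDIT3, DDIT4 and MTHFD2 overlap genes on the opposite strand over 31.6%, 41.2% and 33.2% of their exon bases, where the strand setting of the counting is not given in the sources used here.

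NUPR1, a small stress-induced chromatin protein, was lower at every later day. It went from 209.8 to 155.2, 96.4 and 71.3 CPM from D0 to D10 in experiment 1, and from 145.2 to 90.6, 66.9 and 89.2 CPM in experiment 2. Both D7 and both D10 libraries lay below both D0 libraries. VLDLR, a lipoprotein receptor that ATF4 can raise, was at 28.2 and 44.4 CPM in D0, 20.5 and 18.6 in D4, 24.3 and 15.3 in D7 and 31.5 and 69.4 in D10. SESN2, a sensor of leucine that restrains mTORC1, was lower at D7 (51.8 and 42.1 CPM) than at D0 (66.4 and 64.4). PPP1R15A (GADD34), the subunit that reverses eIF2α phosphorylation, ranged from 134.1 to 167.6 CPM in 7 libraries and was at 270.2 in D10 replicate 2, and ATF5, a relative of ATF4, ranged from 21.7 to 33.7 CPM.

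The tests over all 8 libraries called few of these genes. With edgeR's quasi-likelihood test on all 8 libraries and Benjamini-Hochberg adjustment over 13798 genes, 0 of 42 genes were called at D4, D7 or D10, against 0.0%, 0.0% and 0.29% of all genes. Before adjustment, 1, 5 and 6 of 42 had a p under 0.05, against 2.96%, 4.34% and 7.94% of all genes. DESeq2 called 0, 1 and 3 of 42, against 0.348%, 0.823% and 2.59% of all genes, the 1 being SLC7A5 at D7 (log2 fold change -1.66, adjusted p = 0.041). With the experiment as a replicate block, edgeR called 0, 0 and 3 of 42, against 0.275%, 1.25% and 4.99%. The 3, all at D10, were CHAC1 and ERN1, higher, against 2.54% of all genes, and NUPR1, lower, against 2.45%, and they became 1 without D0 replicate 1 and 0 without D0 replicate 2.

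The D10 libraries disagreed for most ATF4-type genes, and these libraries share in the estimate of spread that all comparisons use. A fit to the 6 libraries of D0, D4 and D7 with the replicate block, added after the values had been seen, called 7 of 42 genes at D4, all ATF4-type and all lower, against 3.37% of all genes called, 2.01% lower and 1.36% higher. At D7 it called 13 of 42, against 5.72% of all genes: 12 ATF4-type genes were lower and CHAC1 higher, against 2.99% and 2.74%, and 0 of 13 ER chaperones were called. The same 6 libraries without the block called 0 genes at D4 and 0 at D7, and the 8-library blocked fit called 0 of the 42 on both days. Over all 8 libraries, DESeq2 with the block called 356 genes at D7, of the 42 only NUPR1 (adjusted p = 0.00246). Without the block and without a filter on low counts, edgeR called 93 genes at D7, of the 42 only SLC7A5 (adjusted p = 0.0312) and PSAT1 (adjusted p = 0.0437).

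In that fit of 6 libraries with the block (edgeR, Benjamini-Hochberg), PHGDH was lower at D7 by a log2 fold change of -1.53 ± 0.15 (SE, adjusted p = 4.89e-05). SLC7A5 followed at -1.71 ± 0.18 (adjusted p = 6.16e-05) and NUPR1 at -1.12 ± 0.13 (adjusted p = 0.000165). PSAT1 was at -1.97 ± 0.26 (adjusted p = 0.000307). DDIT4 (-1.5), SLC3A2 (-1.44), MTHFD2 (-1.07), DDIT3 (-1.11), TRIB3 (-0.96), SHMT2 (-0.55), PSPH (-0.75) and VLDLR (-0.88) were the others called lower. Of the 12, 7 (DDIT4, MTHFD2, NUPR1, PHGDH, PSAT1, SLC3A2 and SLC7A5) were also called lower at D4. VLDLR was not called at D4, although both its D4 libraries (20.5 and 18.6 CPM) lay below both D0 libraries (28.2 and 44.4 CPM). ATF4 was at -0.41 ± 0.14 (adjusted p = 0.127) and SESN2 at -0.49 ± 0.14 (adjusted p = 0.0672), so neither passed. Several of the genes in this paragraph were named after their values had been seen.

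**Figure D2:**
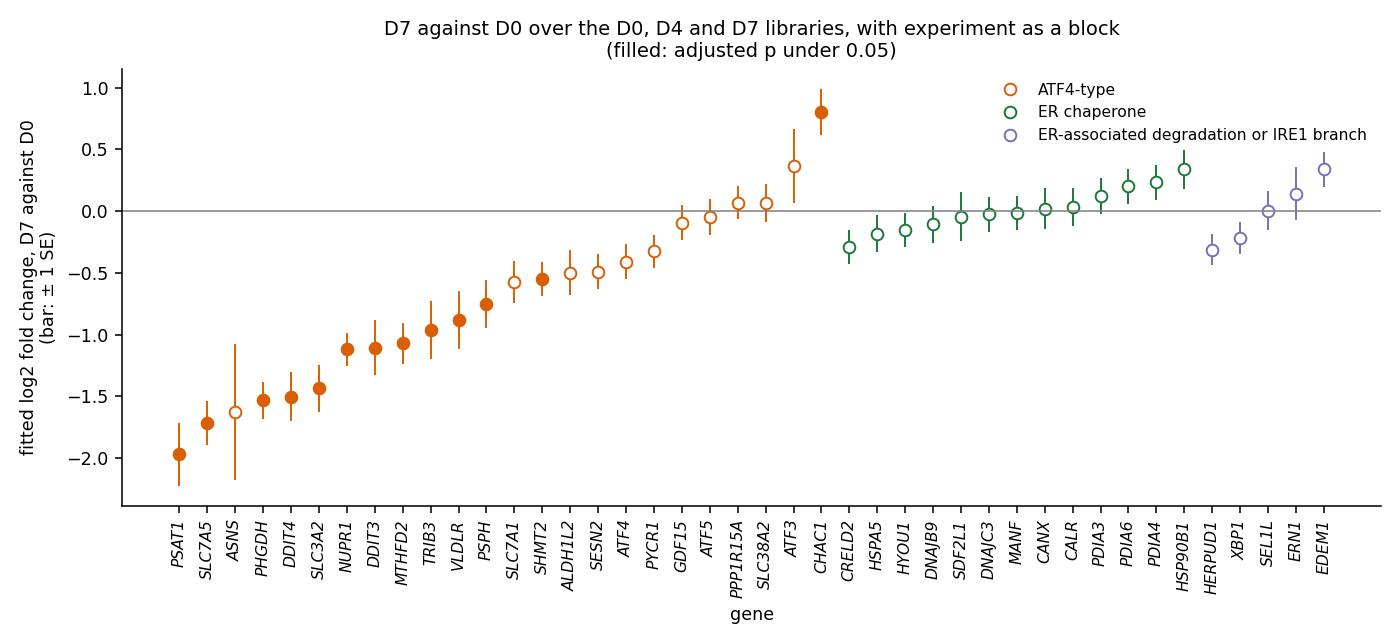
Fitted log2 fold change at D7 against D0 (y axis) for each of the 42 genes (x axis), grouped by role, from the 6 libraries of D0, D4 and D7 with experiment as a block; bars are ± 1 SE and filled points passed an adjusted p under 0.05. The ATF4-type genes run from PSAT1 at -1.97 to CHAC1 at 0.81 and 13 of them are filled, whereas all ER chaperones lie between -0.29 and 0.34 and none is filled.

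Further lists of the pathway were examined in the same fit. Of 20 other ATF4 targets tested, 9 were called lower and 0 higher at D7, against 2.99% and 2.74% of all genes, whereas over all 8 libraries edgeR with and without the block and DESeq2 without it called 0 of the 20 at D7. The 9 were SLC7A11 (-1.69), which exports glutamate for cystine, the glycine transporter SLC6A9 (-1.36), PCK2 (-1.41), ADM2 (-1.30), JDP2 (-1.02), the neutral amino acid transporters SLC1A5 (-0.99) and SLC1A4 (-0.82), RAB32 (-0.69) and EIF4EBP1 (-0.67). Of 20 cytosolic tRNA synthetases, whose genes ATF4 can also raise, 1 was called lower (WARS, -0.68). Of 16 genes listed for stress sensors, the eIF2 machinery and related factors, 1 was also called lower. That 1 was the transcription factor NFE2L2 (-0.58), which is neither a sensor kinase nor part of the eIF2 machinery. None of 36 other ER folding and import genes and none of 19 other genes of ER-associated degradation was called in that fit, and they had 0 calls at D4 too. At D4, 6 of the 9 ATF4 targets (all but SLC1A4, RAB32 and EIF4EBP1), WARS and NFE2L2 were also called lower. Of all genes, 2.01% were called lower at D4. These genes were picked by their D7 calls, and D4 and D7 share the D0 libraries, so the D4 calls are not independent of those at D7. At D10, edgeR with the block over all 8 libraries called 1 of the 20 other ATF4 targets and 1 of the 20 tRNA synthetases. It called 0 of the 16, 0 of the 36 and 0 of the 19 genes of the other lists, against 4.99% of all genes. The 2 were CEBPB and WARS. CEBPB, a partner of ATF4, was at 87.3 and 60.6 CPM in D0 and 151.4 and 228.6 in D10. It was called higher in that fit (1.39, adjusted p = 0.0202) and was at 0.86 without D10 replicate 2. WARS was at 579.9 and 493.8 CPM in D0 and 308.3 and 286.0 in D10. It was called lower in that fit (-0.85, adjusted p = 0.0164) and was at -0.86 without D10 replicate 2.

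At D10 the arms and the experiments parted. In experiment 1, 17 of 24 ATF4-type genes were below D0, with a median change of -0.34, against 49.9% of all genes. All 13 ER chaperones were above D0, with a median of 0.32, against 50.1% of all genes. Of the 13, 12 reached their highest level of the 8 libraries in D10 replicate 1, against 8.27% of all genes. In experiment 2, 16 of 24 ATF4-type genes were above D0, with a median of 0.59, against 48.6% of all genes. Of the 24, 14 were at their highest of the 8 libraries in D10 replicate 2, against 23.2% of all genes. The ER chaperones lay near the share of all genes, with 6 of 13 above D0 and a median of -0.013. The change from D0 was higher in experiment 2 than in experiment 1 for 20 of 24 ATF4-type genes and for 1 of 13 ER chaperones, against 47.0% of all genes. It differed by more than 1 on the log2 scale for 13 of the 24 and for 0 of the 13, against 9.62% of all genes. Both D10 libraries lay above both D0 libraries for 6 of the 42 genes (GDF15, CHAC1, ERN1, EDEM1, DNAJB9 and HYOU1). The same held for 2072 of the 13798 genes tested, a similar share. Both lay below for 3 of the 42, against 16.0% of all genes.

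**Figure D3:**
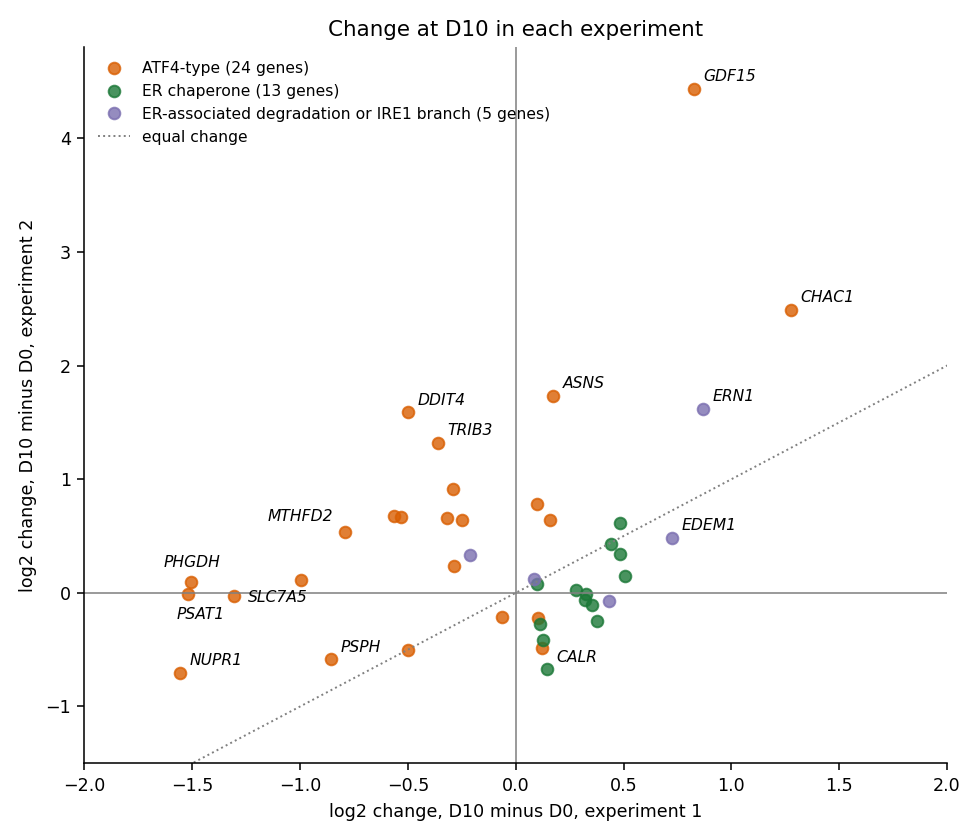
Log2 change from D0 to D10 in experiment 1 (x axis) and in experiment 2 (y axis) for the 42 genes, 1 point each, coloured by role, with a dotted line where both are equal. Of the 24 ATF4-type genes 20 lie above the line, up to GDF15 at 0.82 and 4.44, and several lie left of 0 in experiment 1 and above 0 in experiment 2. The ER chaperones lie right of 0 and, except 1, below the line.

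GDF15 (chr19:18374731-18389176, GRCh38) carried the largest difference. Its level was 75.8 and 77.0 CPM in D0, 96.6 and 74.2 in D4, 71.9 and 71.4 in D7 and 134.3 and 1672 in D10. The D0, D4 and D7 libraries thus lay between 71.4 and 96.6 CPM, and both D10 libraries were above all of them, 1.77-fold over D0 in experiment 1 and 21.7-fold in experiment 2. The fitted log2 fold change was 3.56 ± 0.95 (SE, edgeR adjusted p = 0.209) without and 3.26 ± 0.88 (adjusted p = 0.0789) with the replicate block, and DESeq2 called it (adjusted p = 0.0363). Without D10 replicate 2 the blocked edgeR fit gave 0.75 ± 0.18 (adjusted p = 0.0218), so that the direction held and the size rested on that library. Of 8 p53 targets listed for comparison, 4 (CDKN1A, MDM2, BBC3 and BAX) were also at their highest in D10 replicate 2, against 23.2% of all genes. Of the 8, 1 was at its lowest there, against 24.2% of all genes. CDKN1A was at 1593 and 1844 CPM at D10 against 1731 and 1314 at D0. Its fitted log2 fold change at D10 was 0.17 (edgeR without the block, adjusted p = 0.998). The part of these p53 targets in the GDF15 level was not tested.

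CHAC1 (chr15:40952962-40956519), which degrades glutathione and is raised by ATF4 and CHOP, was higher with medium of each later day in both experiments. It was at 74.7 and 60.9 CPM in D0, 117.4 and 78.1 in D4, 101.9 and 132.4 in D7 and 181.2 and 343.5 in D10. Every later library lay above both D0 libraries, and D10 was 2.42-fold and 5.64-fold over D0 in the experiments. At D10 edgeR gave a log2 fold change of 1.95 ± 0.37 (adjusted p = 0.0813) without and 1.93 ± 0.33 (adjusted p = 0.0123) with the replicate block, and 1.34 ± 0.23 (adjusted p = 0.00244) with the block and without D10 replicate 2. At D7 the blocked edgeR fit of the 6 libraries, added after the values had been seen, called CHAC1 higher (0.81, adjusted p = 0.0197). In that fit 12 other ATF4-type genes were called lower. The blocked edgeR fit of all 8 libraries called 0 of the 42 genes at D7.

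NUPR1 (chr16:28532708-28539174) had a log2 fold change of -1.14 ± 0.34 at D10 (edgeR adjusted p = 0.294), -1.09 ± 0.24 (adjusted p = 0.0377) with the replicate block and -1.60 ± 0.18 (adjusted p = 0.000106) with the block and without D10 replicate 2. It was the only ATF4-type gene called lower at D10 whichever D10 library was left out of the blocked fit. Those fits leave 1 library at D10, which is assumed to vary like the other groups. Without D10 replicate 2 they called 7 ATF4-type genes lower (NUPR1, PHGDH, PSAT1, PSPH, MTHFD2, SLC3A2 and SLC7A5) and 2 higher (CHAC1 and GDF15), besides EDEM1 and ERN1, higher, against 2.58% and 3.75% of all genes. Without D10 replicate 1 they called 1 lower and 12 higher (among them GDF15, CHAC1, DDIT4, TRIB3, DDIT3, ATF4 and PPP1R15A), besides ERN1 and DNAJB9, higher, and CALR, lower, against 7.16% and 6.12% of all genes.

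MTHFD2 passed in both of these fits in opposite directions, at -1.02 ± 0.23 (edgeR adjusted p = 0.0132) for experiment 1 medium at D10 and at 0.75 ± 0.21 (adjusted p = 0.0236) for experiment 2 medium. The fits share their D0, D4 and D7 libraries. In the blocked fit of all 8 libraries MTHFD2 was at 0.02 ± 0.41 (adjusted p = 0.989). PHGDH, PSAT1, SLC3A2 and SLC7A5 were near their D0 level in experiment 2 at D10, at 1.07, 0.995, 1.08 and 0.981 times D0, whereas in experiment 1 they were at 0.351, 0.349, 0.501 and 0.404 times D0.

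In the fits over all 8 libraries these opposite changes gave small differences with wide errors at D10. SLC7A5 was at -0.50 ± 0.45 (SE, edgeR adjusted p = 0.998) without and -0.52 ± 0.42 (adjusted p = 0.578) with the replicate block, and SLC7A1 at 0.21 ± 0.40 (adjusted p = 0.998) and 0.15 ± 0.34 (adjusted p = 0.87). With the block and without D10 replicate 2, SLC7A5 was at -1.57 ± 0.24 (edgeR adjusted p = 0.0011) and SLC7A1 at -0.65 ± 0.23 (adjusted p = 0.124). ATF4 was at 0.27 ± 0.32 (adjusted p = 0.998) and 0.25 ± 0.27 (adjusted p = 0.696), and DDIT3 at 0.13 ± 0.55 (adjusted p = 0.998) and 0.21 ± 0.45 (adjusted p = 0.86), and without that library they were at -0.34 (adjusted p = 0.373) and -0.87 (adjusted p = 0.103). PSPH, which was low in both experiments, was at -0.73 ± 0.38 (adjusted p = 0.792) and -0.72 ± 0.25 (adjusted p = 0.162), and passed without that library, at -1.06 ± 0.26 (adjusted p = 0.0234). ASNS had 9 and 19 counts in D0, 7 and 11 in D4, 2 and 7 in D7 and 11 and 63 in D10, which gave 1.43 ± 0.83 (adjusted p = 0.86) and 1.28 ± 0.49 (adjusted p = 0.21), and 0.24 ± 0.66 (adjusted p = 0.912) without that library. Its value was high in 1 library only, D10 replicate 2.

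**Figure D4:**
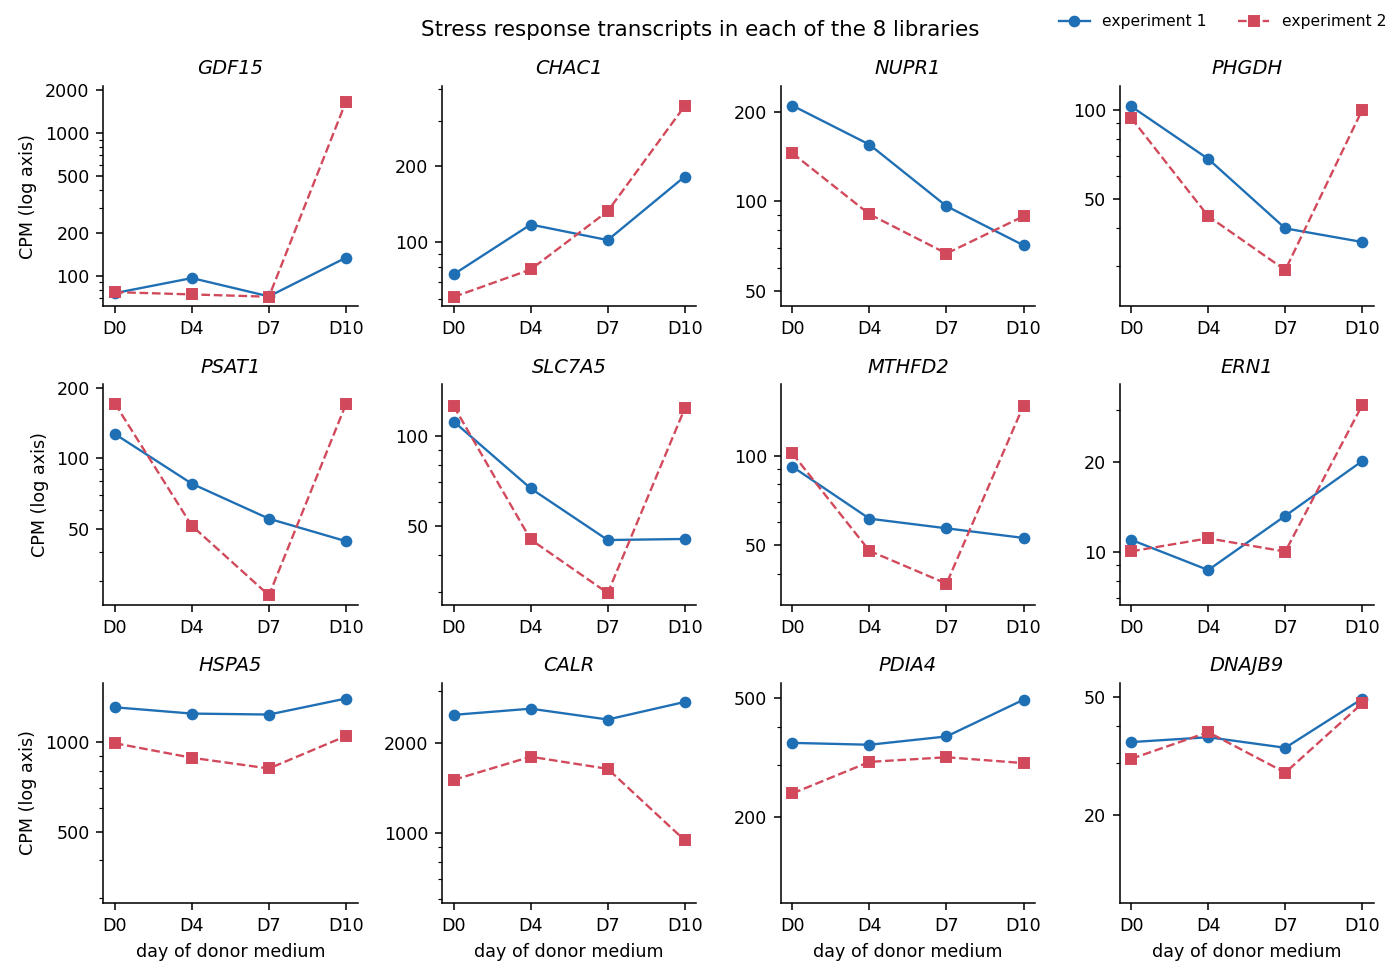
CPM on a log axis (y axis, a separate range for each gene) of 12 of the 42 genes in every library, against the day of the donor medium (x axis); circles and solid lines are experiment 1, squares and broken lines experiment 2. PHGDH, PSAT1, SLC7A5 and MTHFD2 go down to D7 in both experiments and at D10 return upwards only in experiment 2, GDF15 reaches 134.3 and 1672 CPM at D10, and HSPA5, CALR and PDIA4 are lower in experiment 2 at every day.

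The fitted medians of the 3 genes of ER-associated degradation were -0.012 at D7 and 0.18 at D10, beside 0.017 and 0.17 for the ER chaperones. ERN1, of the IRE1 branch (chr17:64039142-64130819), was at 10.97 and 10.0 CPM in D0, 8.68 and 11.1 in D4, 13.2 and 10.0 in D7 and 20.2 and 31.1 in D10, so that both D10 libraries lay above the other 6. Its log2 fold change at D10 was 1.29 ± 0.30 (edgeR adjusted p = 0.141), 1.28 ± 0.25 (adjusted p = 0.0245) with the replicate block and 0.91 ± 0.25 (adjusted p = 0.0473) with the block and without D10 replicate 2. XBP1, whose mRNA ERN1 splices, was at 131.8 and 106.6 CPM in D0, 129.1 and 92.3 in D4, 114.6 and 90.6 in D7 and 139.99 and 115.7 in D10 (0.10 ± 0.26, edgeR adjusted p = 0.998, and 0.10 ± 0.13, adjusted p = 0.751, with the replicate block, and 0.051 ± 0.17, adjusted p = 0.927, with the block and without D10 replicate 2), and counts per gene cannot separate its spliced form.

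EDEM1, a mannosidase-like factor that directs misfolded glycoproteins to degradation, went from 100.7 and 122.0 CPM at D0 to 94.0 and 131.4 in D4, 139.9 and 139.7 in D7 and 166.6 and 170.5 in D10. Its D7 and D10 libraries all lay above both D0 libraries, and the difference at D10 was 0.60 ± 0.24 (edgeR adjusted p = 0.534) without and 0.61 ± 0.16 (adjusted p = 0.075) with the replicate block. It passed in DESeq2 with the block (0.61, adjusted p = 0.0284) and in edgeR with the block and without D10 replicate 2 (0.71 ± 0.18, adjusted p = 0.0306). HERPUD1, an ER stress protein of the retrotranslocation complex, was at 117.2 and 107.6 CPM at D10 against 135.9 and 85.2 at D0. SEL1L, the adaptor of the HRD1 ligase, was at 317.9 and 271.0 CPM against 235.5 and 284.1.

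No ER chaperone was called at D10 in the fits over all 8 libraries. HSPA5 was at 1306 and 989.8 CPM in D0, 1245 and 884.5 in D4, 1235 and 814.2 in D7 and 1398 and 1046 in D10 (0.09 ± 0.34, edgeR adjusted p = 0.998, and 0.09 ± 0.18, adjusted p = 0.849, with the replicate block, and 0.048 ± 0.19, adjusted p = 0.94, with the block and without D10 replicate 2). DNAJB9 (ERdj4), a cochaperone of HSPA5 that is raised through XBP1, had the largest fitted difference of the ER chaperones, with 35.2 and 31.0 CPM in D0, 36.6 and 38.1 in D4, 33.7 and 27.8 in D7 and 49.3 and 47.6 at D10. Both its D10 libraries lay above the other 6, and its log2 fold change was 0.55 ± 0.20 (adjusted p = 0.466), or 0.55 ± 0.14 with the replicate block (adjusted p = 0.0675) and 0.51 ± 0.19 with the block and without D10 replicate 2 (edgeR adjusted p = 0.15). HYOU1 also had both D10 libraries highest, at 290.6 and 237.3 CPM against 214.1 and 176.6 at D0. Both D10 libraries lay above both D0 libraries for these 2 of the 13, and for 2072 of the 13798 genes tested. The protein disulfide isomerases PDIA3, PDIA4 and PDIA6 lay 1.21-, 1.40- and 1.25-fold above D0 in experiment 1, and 1.02-, 1.26- and 0.955-fold in experiment 2.

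CALR, for its part, differed in direction between the D10 libraries. It was at 2492 and 1508 CPM in D0, 2614 and 1803 in D4, 2404 and 1642 in D7 and 2753 and 945.1 in D10, the highest of all libraries in experiment 1 and the lowest in experiment 2. The fitted difference at D10 was -0.11 ± 0.53 (edgeR adjusted p = 0.998), and with the replicate block it was -0.22 ± 0.28 (adjusted p = 0.736) over all libraries, 0.20 ± 0.20 (adjusted p = 0.668) without D10 replicate 2 and -0.72 ± 0.20 (adjusted p = 0.0254) without D10 replicate 1. COL1A1 and COL1A2, the collagen chains these cells secrete, were at 1293 and 2858 CPM in D10 replicate 2 against at least 8682 and 10110 CPM elsewhere, and their part in the CALR level was not tested. CANX, the membrane-bound lectin chaperone, lay between 848.5 and 1340 CPM, and HSP90B1, whose level was 1241 and 1078 CPM at D0, was above D0 in all 6 later libraries of its own experiment.

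The ER chaperones also differed between the experiments. In the blocked fit, edgeR called 15 of 42 genes for experiment 2 against experiment 1, against 34.8% of all genes. The 13 include SDF2L1, CRELD2 and MANF, small ER proteins raised under ER stress, and DNAJC3, an HSPA5 cochaperone that stayed between 56.7 and 87.95 CPM. Of 13 ER chaperones 8 were lower in experiment 2 and 0 higher, against 16.2% and 18.6% of all genes: SDF2L1 (-0.89 ± 0.15, adjusted p = 0.00403), CALR (-0.83 ± 0.20, adjusted p = 0.0136), MANF (-0.72 ± 0.11, adjusted p = 0.00278), CRELD2 (-0.55), HSPA5 (-0.48), PDIA6 (-0.48), PDIA4 (-0.42) and HYOU1 (-0.35). HERPUD1 (-0.56), XBP1 (-0.35), PYCR1 (-0.66) and ATF5 (-0.36) were also lower. The difference was not particular to these chaperones, whose fitted median was -0.42. Of the 36 other ER folding and import genes, 20 were called in either direction, with a median of -0.30. Of the 19 other genes of ER-associated degradation 10 were called, with a median of -0.27. ATF3, an immediate-early stress factor, was higher, at 2.08 ± 0.26 (adjusted p = 0.00171), with 15.9, 10.6, 9.54 and 12.97 CPM from D0 to D10 in experiment 1 and 33.1, 43.2, 75.0 and 62.3 in experiment 2, and so were ASNS (1.53) and SLC38A2 (0.69). The experiments differ in every culture and library, so the sources of these differences cannot be told apart.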

How the data were processed

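RNA from 8 cultures of IMR90 fibroblasts was sequenced from stranded poly(A) libraries. The authors deposited raw read counts per gene for each library; the submitters' processing notes name STAR 2.5, DESeq2 and the GRCh38 (hg38) build, and the counting tool and strand setting are not given in the sources used here. The 8 columns of normalized values in the same table were not used. Replicate 1 of D0 is headed DO in the table and was taken as D0. Gene positions and exon lengths came from GENCODE 29, in which 27588 of 27696 identifiers were found.

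Counts were filtered with filterByExpr (13798 genes left, all 42 among them), scaled by TMM (factors 0.948 to 1.08) and fitted with edgeR 4.0.16 (R 4.3.3) by group over all 8 libraries, with Benjamini-Hochberg adjustment and a threshold of 0.05. A prior count of 2 entered log2 CPM. Dispersion over all genes was 0.0792, and 0.0242 with the experiment as a replicate block. Replicate numbers were taken as pairs, on the assumption that a number stands for the same 1 of 2 independent experiments in every group. The labels do not state this, and the changes within an experiment and the blocked fits rest on it. Over all tested genes, the departures of the libraries from the mean of their group had a correlation of r = 0.418 to 0.722 between libraries that share a number, in 6 pairs of groups. Alternatives were the block, DESeq2 1.42.0, other scaling and filters, the compared groups only, stricter thresholds and leaving out each library. The edgeR and DESeq2 fits were tested on simulated counts. The genes, roles and lists were chosen with earlier results of these data known. Full statistics were given by rule for genes called by any of the 3 fits, for GDF15, ATF4, DDIT3, HSPA5, XBP1 and ERN1, and for the largest rise and fall of each role at D10; other named genes were chosen after their values were seen.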

Additional observations from a re-analysis of the deposited data

How the results depend on the processing

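At D4, D7 and D10 the numbers of genes called were 0, 0 and 40 by edgeR without a block, 38, 172 and 688 with the replicate block, 44, 113 and 383 by DESeq2, 214, 356 and 950 by DESeq2 with the block, and 21, 93 and 371 with no filter on low counts. With the replicate block and only the D0, D4 and D7 libraries, which was chosen after seeing the data, 457 and 776 genes were called at D4 and D7, 7 and 13 of the 42 among them. At D10, 20 genes were called with at least 10 counts in every library, 0 with the compared groups only and 2 at an adjusted p under 0.01. Of the 42 genes, 1 at D7 and 3 at D10 were called by DESeq2, 2 and 3 with no filter, 3 at D10 with the replicate block, and 1 at D7 and 5 at D10 by DESeq2 with the block. For the difference between experiments, a threshold of 0.01 left 2035 genes and 5 of the 42, and a fold change of at least 2 left 897 and 2. No fit of this difference without the block exists, as it is the block term.

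With each library left out in turn, with and without the block, the genes called ranged from 0 to 491 at D4, 0 to 819 at D7, 0 to 1906 at D10 and 2121 to 5602 between the experiments, and the members called from 0 to 8, 0 to 13, 0 to 16 and 6 to 19. On all 3 days the highest counts came from the blocked fit without D10 replicate 1, and with the block 0 genes were called at D7 without D0 replicate 2, D7 replicate 1 or D7 replicate 2. The ATF4-type median ranged from -0.70 to -0.16 at D4 and -1.13 to -0.36 at D7, negative throughout on these days. At D10 its sign was not stable. The fitted ATF4-type median was 0.087 over all 8 libraries, and the median change was -0.34 in experiment 1 and 0.59 in experiment 2. The ER chaperone median ranged from -0.11 to 0.34 at D4, -0.25 to 0.25 at D7 and -0.17 to 0.47 at D10. Counting degradation and IRE1-branch genes with the chaperones moved their D4 median from 0.14 to -0.024. The D10 log2 fold change changed sign in this way for ATF4 (-0.34 to 0.75), DDIT3 (-0.87 to 0.99), ASNS (-0.30 to 2.21), SLC7A5 (-1.57 to 0.21), SLC7A1 (-0.65 to 0.78), HSPA5 (-0.12 to 0.30), CALR (-1.06 to 0.46) and XBP1 (-0.049 to 0.26). The cause of these changes was not tested. With 2 libraries per group, the p-values measure the spread between single cultures. In the fits with the block, this is the spread left after the shift between the experiments is taken out.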
